A study of Mus musculus with 8 samples.

Results

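The sorting nexins and the vacuolar protein sorting (Vps) proteins are the gene families of endosomal sorting to which SNX5 belongs, and their RNA was examined in whole lungs of mice that carry a gene trap in Snx5. Members were all genes of the platform annotation whose symbol begins with Snx or Vps and a number, without Snx5 itself. The rule found 56 members, 27 sorting nexins and 29 Vps genes, among 16593 genes named on the array. They have 82 probes, and each gene was read from its brightest probe over all 8 arrays. The comparison asked whether relatives and partners of SNX5 differed in lungs that lack it.

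Whole-lung RNA of embryos at embryonic day 18.5 was measured on 8 single-colour Illumina MouseRef-8 v2 BeadChips, with 2 arrays in each of 4 groups. The embryos came from a gene-trap line that was backcrossed to C57BL/6 mice and then interbred. The groups were Snx5-/- air, Snx5+/+ air, Snx5-/- non-air and Snx5+/+ non-air lungs. Air lungs are taken here as those of pups delivered by caesarean section and left to breathe room air in a warmed chamber, and non-air lungs as those without that step. The Snx5-/- mice descend from 1 gene-trap embryonic stem cell line, in which a reporter cassette sits in an intron of Snx5 in all cells, so the disruption is not limited to the lung. For both non-air Snx5-/- samples one free-text label says wild type while title and genotype say mutant. They were grouped by the title.

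Sorting nexins share a PX domain that binds phosphoinositides of endosomal membranes, and in the SNX-BAR subfamily a BAR domain bends the membrane into tubules. SNX1 or SNX2 pairs with SNX5, SNX6 or SNX32, and these pairs work beside the retromer trimer of VPS26, VPS29 and VPS35 to return receptors from endosomes to the Golgi or the cell surface. The other Vps proteins were named from yeast mutants that missort vacuolar enzymes and form tethering complexes (HOPS, CORVET, GARP, EARP), the ESCRT complexes that sort ubiquitinated receptors into multivesicular bodies, and lipid transfer proteins. In alveolar epithelial cells such routes carry surfactant proteins and growth factor receptors.

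Many lysosomal and endosomal genes hold a palindromic E-box, the CLEAR element, near their start. Promoters from RefSeq, build GRCm38.p6, with a window of 300 bases, were found for 38 of the 56 members. The palindrome GTCACGTGAC, which reads the same on both strands, lay in 4 of 44 member promoters (9.09%), against 107 of 32851 promoters of all genes (0.326%). These belong to 3 of the 38 members, Vps16, Vps26a, which has a pair of promoters, and Vps33a. The promoters of all genes cover 27025 genes and were not limited to those on the array. The core CACGTG, which lies inside the palindrome, was found in 7 of the 44 (15.9%) and in 7.15% of all promoters. The median GC content was 64.7% in the member promoters and 52.7% in all. The median number of CpG dinucleotides per promoter was 24 in the members and 7 in all, and the sets were not matched for composition. A match is a description of letters and not evidence of a bound factor. The stretches around the palindrome are shown as sequence that these members share and the rule did not use. Each is 5′ to 3′ on the strand of the gene with the palindrome in capitals, and their order is Vps16 at chr2:130424280-130424329 (plus strand), Vps26a at chr10:62486722-62486771 and at chr10:62486960-62487009 (minus strand), and Vps33a at chr5:123573000-123573049 (minus strand).
Vps16: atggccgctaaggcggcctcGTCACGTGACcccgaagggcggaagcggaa
Vps26a, downstream promoter: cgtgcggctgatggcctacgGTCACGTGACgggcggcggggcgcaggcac
Vps26a, upstream promoter: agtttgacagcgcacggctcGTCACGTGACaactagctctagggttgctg
Vps33a: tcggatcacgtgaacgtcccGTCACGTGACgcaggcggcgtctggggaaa

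Values are log2 intensities, quantile normalized by the authors, and a probe counts as detected on an array at a detection p-value under 0.01. Each array detected 12209 to 12685 probes, 47.5% to 49.4% of the 25697. The air labels of the deposited tables conflict. Every non-normalized intensity column was matched by log2 values of its own genotype and replicate but the opposite air state (rank correlations from 0.99975 to 0.99982), while the detection p-values followed the labels of the log2 table. The log2 labels are used here. Under the others, air and non-air exchange places, so air comparisons change sign and the genotype comparison averaged over both states keeps its sign. The intensity table, normalized anew, still turned that sign for Snx1, from 0.0022 to -0.0067. All 10 type II cell markers and 7 of 9 measured type I cell markers of the fixed lists were detected on all 8 arrays. Fgb, Alb, Afp, Apoa1 and Ttr of liver were detected on none. The Snx5-/- air lungs differed from the other 6 in Xist, at 7.83 and 7.77 against 12.32 and 12.38 in Snx5+/+ air lungs, and in the Y-linked Eif2s3y, at 11.81 and 11.73 against 7.40 and 7.21. Sex therefore cannot be told apart from genotype in air lungs, from air in Snx5-/- lungs or from the interaction, and it enters both averaged comparisons.

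Of the 56 members, 47 were detected on all 8 arrays, 4 on some arrays and 5 on no array. The 4 were Vps39 on 6 arrays, Snx32 on 5, Snx22 on 4 and Snx19 on 1, and the 5 were Snx20, Snx31, Vps13a, Vps13c and Vps37a. A probe was tested where a group mean exceeded a log2 intensity of 8, which 52 members passed in the averaged comparison. The 4 that never passed had highest group means of 7.26 (Snx31, a binder of uroplakins), 7.48 (Vps13a), 7.67 (Vps13c) and 7.79 (Vps37a). Changes were tested with limma, and a gene was called at a p under 0.05 after Benjamini-Hochberg adjustment over all probes tested, with a change of more than 1.28-fold in either direction.

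The targeted gene was dim on this array. Probe ILMN_2706101 of Snx5 had log2 intensities of 7.29 and 7.10 in Snx5-/- air lungs, against 7.84 and 8.42 in Snx5+/+ air lungs, and of 7.23 and 7.24 in Snx5-/- non-air lungs, against 7.88 and 7.85 in Snx5+/+ non-air lungs. All 4 Snx5-/- arrays lay below all 4 Snx5+/+ arrays, and only 1 array, a Snx5+/+ air array, had a detected signal. The probe was called lower in Snx5-/- lungs over both states (adjusted p = 0.00274, limma, n = 4 per genotype), with no fold since 3 groups were not above background. For air lungs the decrease was at least 1.10-fold, the Snx5+/+ mean being set against the lowest detected signal of the Snx5-/- arrays (adjusted p = 0.0103, limma). The second Snx5 probe was detected on 0 arrays, and the position of either probe with respect to the insertion was not analysed here.

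No sorting nexin or Vps gene was called between genotypes by the probe that stood for it. In the comparison averaged over both states, 0 of 52 tested members were called, against 2.41% of the 9635 genes tested. The members' log2 fold changes of Snx5-/- over Snx5+/+ lungs ran from -0.25 (Snx7) to 0.29 (Snx16) with a median of 0.0030, beside a median of 0.0073 over all genes. Positive differences were seen in 27 of 52, against 52.5% of all genes tested. Of 14 members with over 1 tested probe, 7 had the same sign on all tested probes. In air lungs 0 of 52 members were called, against 2.36% of genes, and in non-air lungs 0 of 51, against 0.639%. The median absolute log2 fold change was 0.05 for the members and 0.08 for all genes tested.

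The same count at a raw threshold was low as well. At an unadjusted p under 0.05, 2 of 52 members passed in the averaged comparison, Snx16 and Vps39, against 15.8% of all genes. In air lungs the same pair passed, 2 of 52, against 15.2%. In non-air lungs 4 of 51 passed, Snx12, Snx16, Vps29 and Vps39, against 13.8%, and each of the 4 was higher in Snx5-/- lungs. All 4 Snx5-/- arrays lay above all 4 Snx5+/+ arrays for 1 tested member, Snx16, and below them for 0, against 7.92% of genes that separate in one direction or the other.

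The 95% interval of the averaged difference lay wholly inside the 1.28-fold cutoff on both sides for 47 of 52 members, against 78.8% of genes tested. The exceptions were Snx7, Snx16, Snx30, Vps26b and Vps39. The 47 include Snx20, detected on no array, and Snx19 and Snx22, with groups not above background. In air lungs 32 of 52 intervals lay inside the cutoff, against 41.3% of genes, and in non-air lungs 27 of 51, against 42.5%. With 2 arrays a group, an exact two-sided permutation test of a single gene cannot give a p below 0.333, and with 4 arrays a genotype not below 0.0286. In whole-lung RNA, fewer cells of a type and less RNA per cell cannot be told apart.

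**Figure D1:**
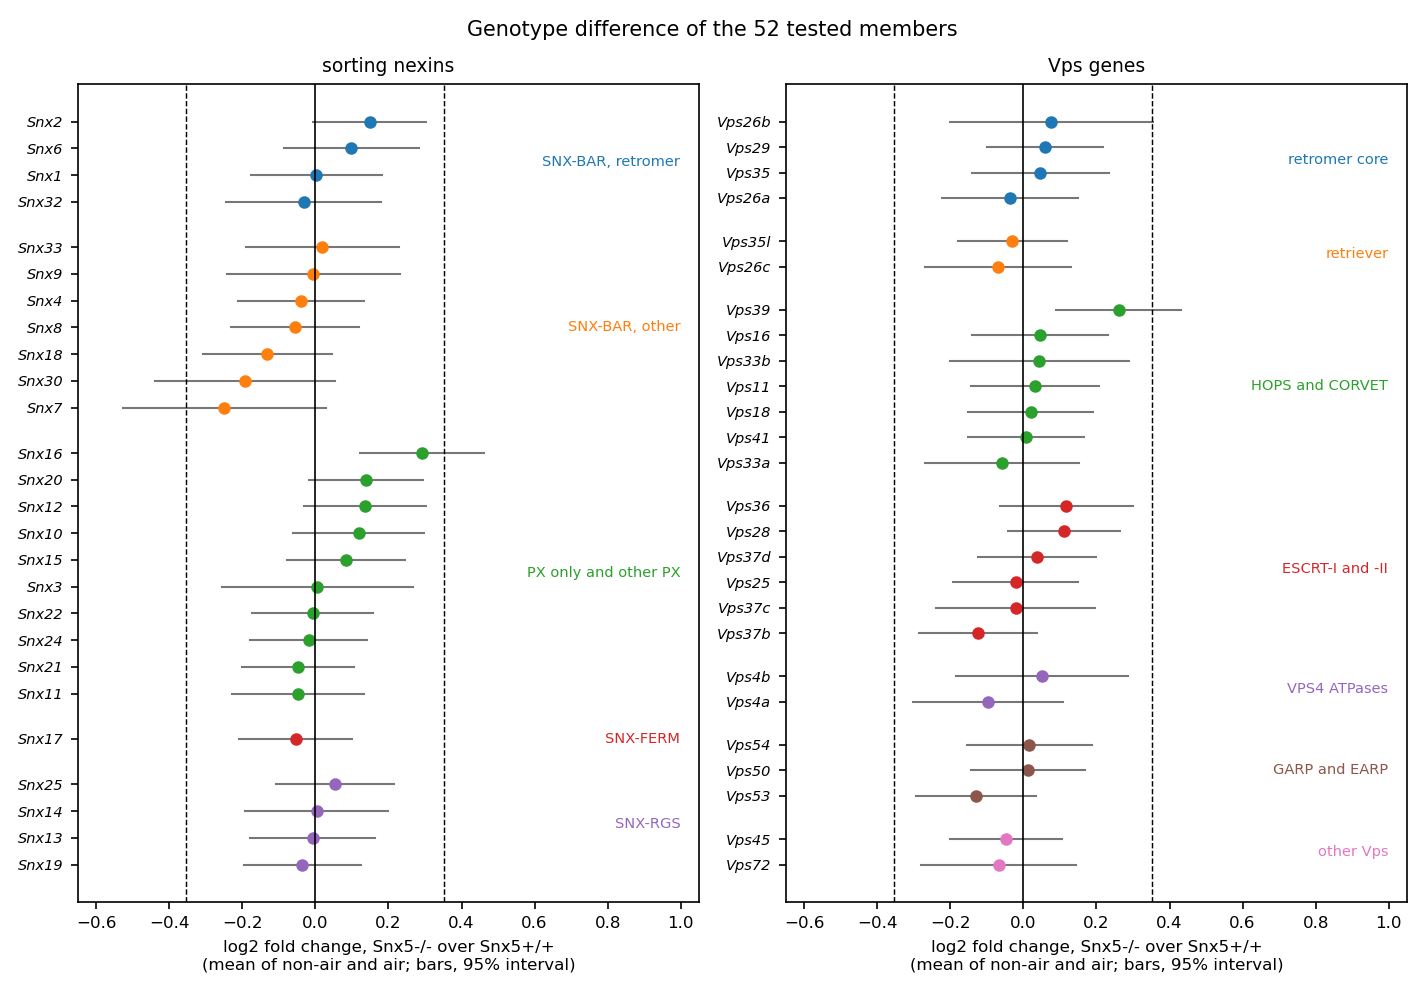
Log2 fold change of Snx5-/- over Snx5+/+ lungs, averaged over air and non-air (x axis), for the 52 tested members grouped by role; points are limma estimates over 8 arrays, bars are 95% intervals and dashed lines mark the 1.28-fold cutoff on both sides. Every point lies between the dashed lines, and the intervals of Snx16 and Vps39 alone exclude 0.

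The closest relatives of SNX5 and its dimer partners showed differences smaller than the cutoff. The 4 retromer SNX-BAR genes had log2 fold changes from -0.03 to 0.15, and none passed even the raw threshold. Snx2, which encodes one of the pair of partners that SNX5 can dimerise with, had log2 intensities of 14.38 and 14.25 in Snx5-/- air lungs, against 14.11 and 14.11 in Snx5+/+ air lungs, and of 14.45 and 14.39 in Snx5-/- non-air lungs, against 14.30 and 14.36 in Snx5+/+ non-air lungs. Both Snx5-/- arrays were the higher ones within each state. The averaged difference was 0.15 (SE 0.07, 95% interval -0.0060 to 0.30, adjusted p = 0.356, limma), and the other probes of Snx2 gave 0.11 and -0.03.

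Snx1, the other partner, had log2 intensities of 10.36 and 10.50 in Snx5-/- air lungs, against 10.43 and 10.47 in Snx5+/+ air lungs, and of 10.30 and 10.58 in Snx5-/- non-air lungs, against 10.38 and 10.45 in Snx5+/+ non-air lungs. The Snx5+/+ values fell between the pair of Snx5-/- values in each state, and the averaged difference had an interval of -0.18 to 0.18. Snx6, the gene most like Snx5 in sequence and function, had 11.89 and 11.93 in Snx5-/- air lungs, against 11.71 and 11.64 in Snx5+/+ air lungs, and 11.88 and 11.73 in Snx5-/- non-air lungs, against 11.69 and 11.996 in Snx5+/+ non-air lungs. Its groups separated in air lungs only, where the difference was 0.23 (SE 0.12, adjusted p = 0.405, limma), and the averaged difference was 0.10 with an interval of -0.09 to 0.28 and a range of 0.02 to 0.18 on leaving out 1 array. Snx32, a relative of Snx6 known from brain, lay near background at 8.02 to 8.36 on all 8 arrays, with an interval of -0.24 to 0.18.

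The retromer trimer was likewise without a call. Vps35, the scaffold of the trimer, had log2 intensities of 11.99 and 11.90 in Snx5-/- air lungs, against 11.79 and 11.65 in Snx5+/+ air lungs, and of 11.79 and 11.66 in Snx5-/- non-air lungs, against 11.71 and 12.01 in Snx5+/+ non-air lungs. The Snx5-/- arrays were the higher in air lungs and overlapped the Snx5+/+ arrays in non-air lungs, for an averaged difference of 0.05 (95% interval -0.14 to 0.23, adjusted p = 0.855, limma). Vps29, which clamps one end of VPS35, had 13.33 and 13.32 in Snx5-/- air lungs, against 13.41 and 13.47 in Snx5+/+ air lungs, and 13.31 and 13.46 in Snx5-/- non-air lungs, against 13.21 and 13.09 in Snx5+/+ non-air lungs. Its Snx5-/- arrays were lower in air and higher in non-air lungs (differences -0.11 and 0.23). The interaction was -0.35 (SE 0.15, adjusted p = 0.385, limma), and the averaged interval was -0.10 to 0.22.

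Vps26a and Vps26b encode alternative forms of the third subunit. Vps26a had 13.34 and 13.06 in Snx5-/- air lungs, against 13.25 and 13.22 in Snx5+/+ air lungs, and 13.27 and 13.09 in Snx5-/- non-air lungs, against 13.30 and 13.15 in Snx5+/+ non-air lungs. Vps26b had 9.12 and 9.65 in Snx5-/- air lungs, against 9.12 and 9.28 in Snx5+/+ air lungs, and 9.10 and 9.57 in Snx5-/- non-air lungs, against 9.36 and 9.38 in Snx5+/+ non-air lungs. The replicates of the Snx5-/- groups were further apart than the genotypes for both genes. Their averaged intervals were -0.22 to 0.15 for Vps26a and -0.20 to 0.35 for Vps26b.

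**Figure D2:**
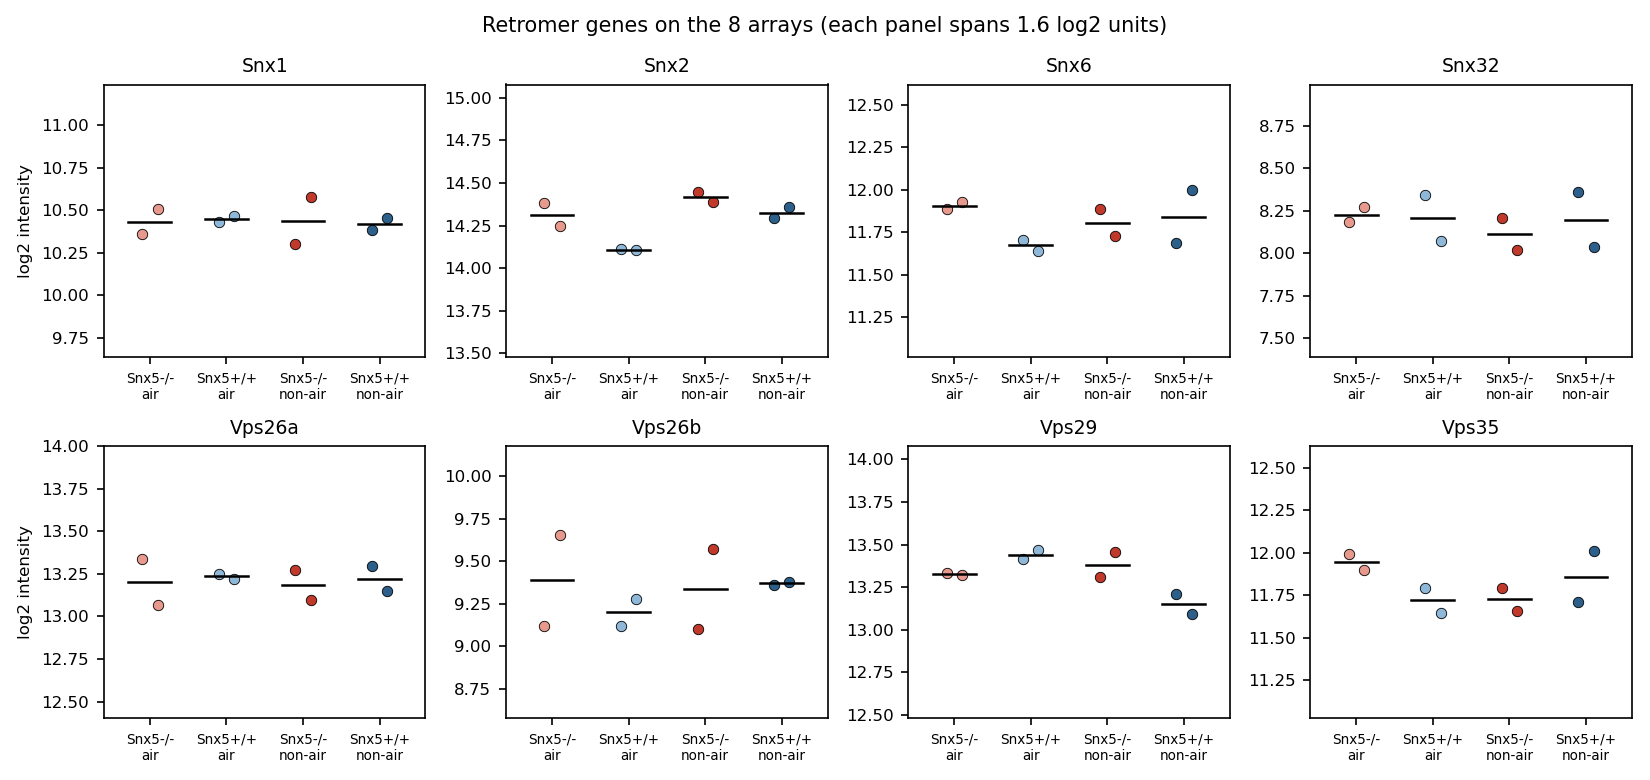
Log2 intensity (y axis) of the 8 retromer genes in Snx5-/- and Snx5+/+ lungs with and without air (x axis); points are single arrays, 2 per group, bars are group means, and every panel spans the same range with its own origin. Snx2 is higher in Snx5-/- lungs in both states, Snx6 and Vps35 in air lungs alone, Vps29 is lower in air and higher in non-air lungs, and the genotypes of the other 4 genes overlap in both states.

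The retriever genes Vps35l and Vps26c encode a sister complex of retromer that also uses VPS29 and recycles integrins to the surface. Their averaged differences were -0.03 and -0.07, with 0 of 2 called. Snx17, which hands cargo to retriever, differed by -0.05 between genotypes.

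Among the other 7 SNX-BAR genes 0 were called and 6 had a negative difference. Snx7, whose product pairs with SNX4 in human cells, had the most negative value of all members. Its log2 intensities were 10.65 and 10.30 in Snx5-/- air lungs, against 10.58 and 10.75 in Snx5+/+ air lungs, and 10.05 and 10.53 in Snx5-/- non-air lungs, against 10.40 and 10.80 in Snx5+/+ non-air lungs. The groups overlapped in both states, and the difference of -0.25 (SE 0.13, 95% interval -0.53 to 0.03) had an adjusted p of 0.397 (limma). Leaving out 1 array moved it between -0.37 and -0.13. Snx30, a second partner of SNX4, differed by -0.19 (adjusted p = 0.466, limma) and by -0.34 in air lungs, where its values were 9.22 and 8.96 in Snx5-/- lungs against 9.63 and 9.23 in Snx5+/+ lungs. The groups barely separated there, by less than the gap between replicates, and leaving out 1 array moved these values between -0.29 and -0.09 and between -0.54 and -0.15.

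Snx18, an SH3-bearing SNX-BAR gene of endocytosis and autophagosome formation, differed by -0.13, and its value rested on Snx5+/+ non-air replicate 2. That array read 13.43, against 12.99 to 13.12 on the other 7 arrays, and without it the difference was -0.05. Snx4 (-0.04), Snx8 (-0.06), Snx9 (-0.0059) and Snx33 (0.02) were closer to 0.

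Of the 10 sorting nexins with a PX domain and none of the BAR, FERM or RGS domains, 0 were called and 6 had positive differences. Snx16, which acts in passage of the EGF receptor through endosomes in human cells, had the largest positive difference of all members. It had log2 intensities of 9.98 and 9.84 in Snx5-/- air lungs, against 9.56 and 9.69 in Snx5+/+ air lungs, and of 9.99 and 10.17 in Snx5-/- non-air lungs, against 9.77 and 9.79 in Snx5+/+ non-air lungs. The 4 Snx5-/- arrays lay above the 4 Snx5+/+ arrays. The averaged difference of 0.29 (SE 0.08, 95% interval 0.12 to 0.46, higher in 4 of 4 Snx5-/- arrays) missed the call with an adjusted p of 0.075 (limma), and it was 0.28 in air and 0.30 in non-air lungs. Leaving out 1 array at a time moved it between 0.25 and 0.34, with 0 members called each time.

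Snx12, an X-linked relative of Snx3, had 10.06 and 10.12 in Snx5-/- air lungs, against 10.01 and 10.20 in Snx5+/+ air lungs, and 10.26 and 10.36 in Snx5-/- non-air lungs, against 9.97 and 10.08 in Snx5+/+ non-air lungs. Its groups separated in non-air lungs alone (difference 0.28, SE 0.11, adjusted p = 0.307, limma), and the Snx5-/- air arrays are those with low Xist. In non-air lungs Xist read 12.58 and 12.45 on the Snx5-/- arrays and 11.82 and 12.19 on the Snx5+/+ arrays. Whether sex had a part in the values of Snx12 was not tested. Snx20, known in human leukocytes as a binder of the selectin ligand PSGL-1, had a fitted difference of 0.14 but was detected on no array, so no fold is given. The others were Snx10 (0.12), Snx15 (0.08), Snx3 (0.0053), Snx24 (-0.02), Snx21 (-0.05) and Snx11 (-0.05), and Snx22, for which no fold is given. The 4 SNX-RGS genes, whose products sit in the membrane of the endoplasmic reticulum or endosomes, were Snx25 (0.05), Snx14 (0.0039) and Snx13 (-0.0079), with no fold for Snx19, which was detected on 1 Snx5+/+ non-air array alone.

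HOPS and CORVET tether late and early endosomes before fusion, and their 7 members held the only member that was called at all. Vps39, a subunit particular to HOPS and to fusion with lysosomes, has a pair of tested probes. The brighter had log2 intensities of 8.25 and 8.44 in Snx5-/- air lungs, against 8.15 and 8.04 in Snx5+/+ air lungs, and of 8.78 and 8.94 in Snx5-/- non-air lungs, against 8.56 and 8.60 in Snx5+/+ non-air lungs. The Snx5-/- arrays lay above the Snx5+/+ arrays within each state. This probe differed by 0.26 between genotypes (SE 0.08, 95% interval 0.09 to 0.43, adjusted p = 0.121, limma), which was not called, and the signal was not above background on either Snx5+/+ air array.

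The second Vps39 probe, examined after its values were seen, gave a larger difference. Its log2 intensities were 8.39 and 8.45 in Snx5-/- air lungs, against 7.89 and 7.81 in Snx5+/+ air lungs, and 9.05 and 8.71 in Snx5-/- non-air lungs, against 8.69 and 8.59 in Snx5+/+ non-air lungs. The Snx5-/- arrays were again the higher within each state. It was called higher in Snx5-/- lungs over both states (log2 fold change 0.41, SE 0.09, at least 1.26-fold, adjusted p = 0.0258, limma) and in air lungs (0.57, SE 0.12, at least 1.34-fold, adjusted p = 0.0321, limma), where at least means that undetected arrays were set to their lowest detected signal. In non-air lungs it was not called (0.24, SE 0.12, adjusted p = 0.421, limma). Under the air labels of the intensity table the call in air lungs was lost (0.24, adjusted p = 0.416, limma). The Snx5-/- air arrays are those with low Xist, and whether sex had a part in the air call was not tested. The averaged call was lost on leaving out any array other than Snx5-/- non-air replicate 2 or Snx5+/+ non-air replicate 1 (adjusted p from 0.0586 to 0.119, limma). The air call was lost on leaving out any of the 4 air arrays (adjusted p from 0.112 to 0.255, limma). Of 72 member probes tested in the averaged comparison, this was the 1 called.

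Vps39 lies on chromosome 2, as do Snx5 and 3 other members. In the order of protein-coding genes of build GRCm38.p6, Vps39 stands 216 places from Snx5, Vps18 240 and Vps16 77 on the same side, and Snx21 291 on the other side. Whether sequence linked to the trapped allele had a part in their values was not tested. Vps18 and Vps16, core subunits of both tethers, differed by 0.02 and 0.05, and Snx21 by -0.05 (intervals -0.15 to 0.19, -0.14 to 0.23 and -0.20 to 0.11). Vps11 (0.03), Vps33a (-0.06), Vps41 (0.0064) and Vps33b (0.04), the last a subunit of a relative of HOPS, complete the group. Vps16, Vps26a and Vps33a, which carry the palindrome shown above, had averaged differences of 0.05, -0.04 and -0.06.

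The ESCRT genes were spread on both sides of 0, with 0 of 8 tested members called. In ESCRT-I, Vps28 differed by 0.11, Vps37d by 0.04, Vps37c by -0.02 and Vps37b by -0.13 (95% interval -0.29 to 0.04, adjusted p = 0.470, limma). In ESCRT-II, Vps36 differed by 0.12 and Vps25 by -0.02. The genes of the ATPases that disassemble ESCRT-III, Vps4a and Vps4b, differed by -0.10 and 0.05. Of the tethers at the Golgi and recycling endosomes, Vps53, shared by GARP and EARP, differed by -0.13 (adjusted p = 0.463, limma), Vps54 of GARP by 0.02 and Vps50 of EARP by 0.01. Vps45, a regulator of SNARE pairing, differed by -0.05 over both states and by -0.21 in air lungs (95% interval -0.43 to 0.0043, not called). Vps72, which differed by -0.07, encodes a subunit of chromatin complexes that deposit the histone variant H2A.Z and not a sorting protein.

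**Figure D3:**
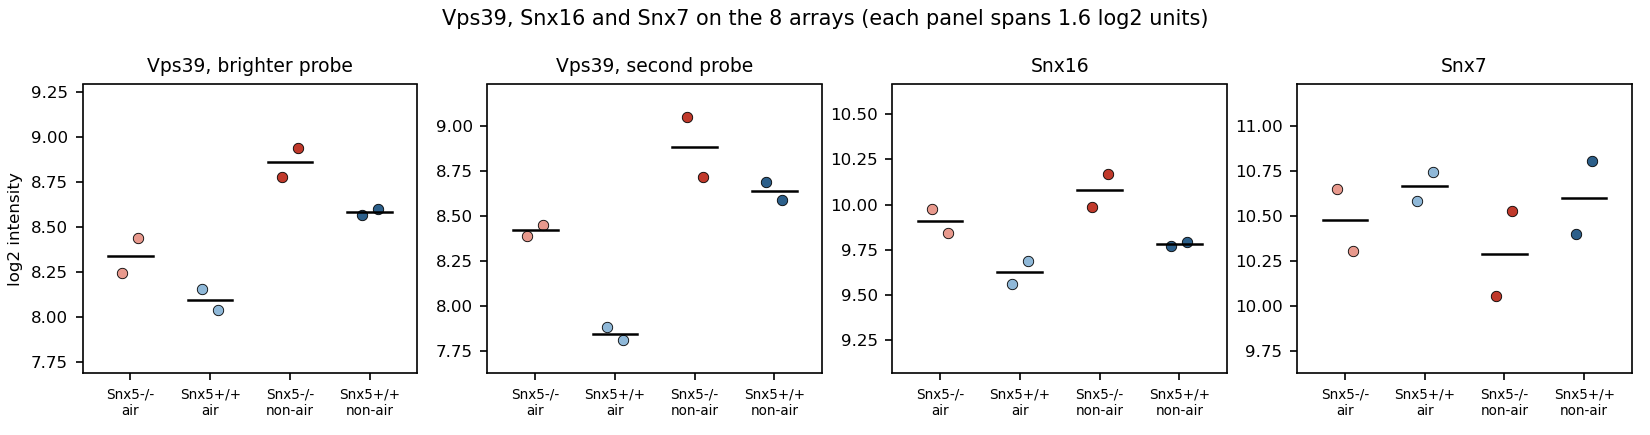
Log2 intensity (y axis) of both Vps39 probes, Snx16 and Snx7 in Snx5-/- and Snx5+/+ lungs with and without air (x axis); points are single arrays, 2 per group, bars are group means, and every panel spans the same range with its own origin. Vps39 is higher in Snx5-/- than in Snx5+/+ lungs within each state and lower in air than in non-air lungs on both probes under the labels of the log2 table, Snx16 separates by genotype, and the groups of Snx7 overlap.

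Of the 51 members tested in both states, 21 had a genotype difference of the same sign in air and non-air lungs. The interaction of genotype and air was called for 0 of 52 members, against 0.488% of genes, and passed the raw threshold for 3 of 52, Snx25, Vps29 and Vps45, against 12% of genes. Its largest positive values were Vps35 (0.36, adjusted p = 0.440), Snx25 (0.34, adjusted p = 0.398) and Snx4 (0.31, adjusted p = 0.465), and its most negative Vps29 (-0.35, adjusted p = 0.385), Vps45 (-0.33, adjusted p = 0.393) and Snx30 (-0.30, adjusted p = 0.630), all from limma. The Snx30 value ranged from -0.50 to -0.10 on leaving out 1 array. Only 4 of 52 interaction intervals lay inside the cutoff, against 5.86% of genes, so differences between states were not well resolved.

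**Figure D4:**
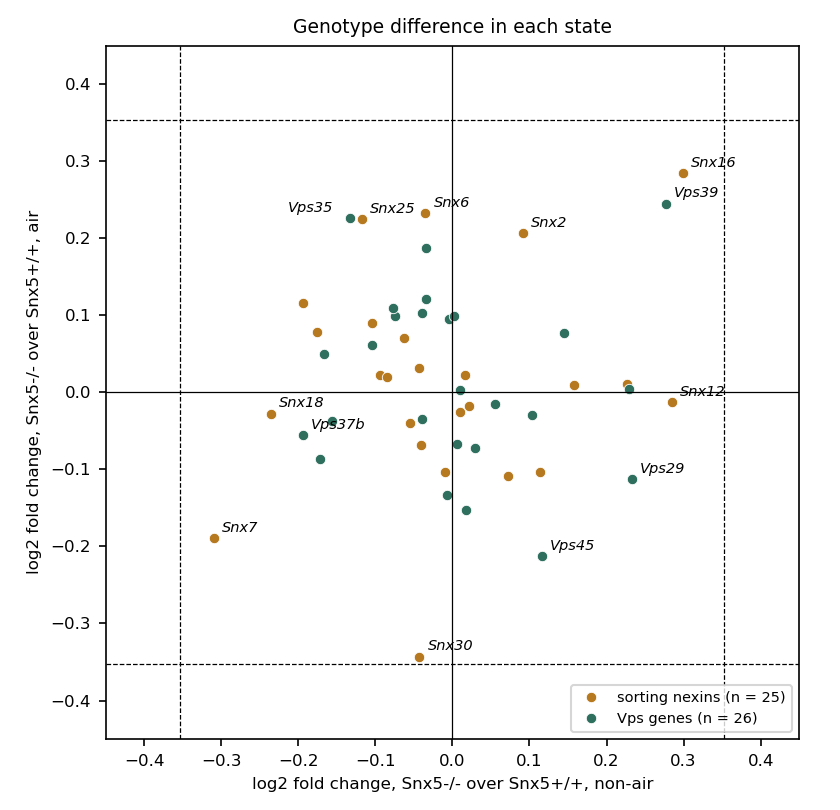
Log2 fold change of Snx5-/- over Snx5+/+ lungs in non-air lungs (x axis) and in air lungs (y axis), one point per gene for 25 sorting nexins and 26 Vps genes; dashed lines mark the 1.28-fold cutoff. All points lie inside the cutoff, with Snx16 and Vps39 positive on both axes, Snx7 negative on both, and Snx30 near the lower line in air lungs alone.

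Air and non-air lungs were also compared, and 1 of 52 members was called. Vps39 was lower in air lungs averaged over genotypes (log2 fold change -0.50, SE 0.08, 95% interval -0.67 to -0.33, adjusted p = 0.00738, limma), against 1.27% of genes called in either direction. Its decrease was at least 1.42-fold with undetected arrays set to their lowest detected signal, which is not a confidence limit. Its 4 air arrays lay below its 4 non-air arrays, and the second probe was lower too (-0.62, SE 0.09, at least 1.46-fold, adjusted p = 0.0031, limma). The brighter probe was not called without Snx5-/- non-air replicate 2 (adjusted p = 0.0625, limma) or without Snx5+/+ air replicate 2 (adjusted p = 0.0597, limma). Under the air labels of the intensity table the sign turned, to 0.49 (adjusted p = 0.00839, limma).

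By genotype, 0 of 52 members were called in Snx5-/- lungs, against 0.701% of genes, and 0 of 51 in Snx5+/+ lungs, against 0.796%. Vps39 came closest in both, with -0.52 (adjusted p = 0.0728) in Snx5-/- lungs and -0.49 (adjusted p = 0.0828) in Snx5+/+ lungs, both from limma. Its second probe was called in Snx5+/+ lungs (-0.79, SE 0.12, at least 1.56-fold, adjusted p = 0.011, limma), and not in Snx5-/- lungs (-0.46, adjusted p = 0.166, limma). The interaction for that probe was 0.33 (SE 0.17, adjusted p = 0.471, limma). The call in Snx5+/+ lungs was lost without Snx5+/+ air replicate 1 (adjusted p = 0.0780, limma) or replicate 2 (adjusted p = 0.171, limma).

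At an unadjusted p under 0.05, 6 of 52 members passed in the averaged air comparison, against 13.3% of genes, 2 of 52 in Snx5-/- lungs, against 9.91%, and 5 of 51 in Snx5+/+ lungs, against 16.8%. The air arrays lay all above the non-air arrays for 2 members, Snx17 and Snx22, and all below for 4, Snx14, Snx21, Vps35l and Vps39, against 5.99% of genes that separate. Snx17 read 13.62 and 13.71 in Snx5-/- air lungs, against 13.51 and 13.40 in Snx5-/- non-air lungs, and 13.75 and 13.72 in Snx5+/+ air lungs, against 13.54 and 13.45 in Snx5+/+ non-air lungs (averaged difference 0.23, SE 0.07, adjusted p = 0.181, limma). With the mean of its 2 probes, the Snx17 difference in Snx5+/+ lungs turned negative. Snx14, whose loss in humans causes a cerebellar ataxia, differed by -0.26 (SE 0.09, adjusted p = 0.233, limma). Snx8 (0.14) and Snx21 (-0.20) followed. Snx22 was at least 1.15-fold higher in air lungs, since it was not above background on either Snx5-/- non-air array. None of these was called.

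Within 1 genotype, the 3 largest differences in each direction other than Vps39 were of the same order. In Snx5-/- lungs, air over non-air, they were Snx4 (0.23), Vps35 (0.22), Snx12 (-0.22), Snx24 (-0.22) and Snx22, at least 1.22-fold higher, with adjusted p-values from 0.361 to 0.618 (limma). In Snx5+/+ lungs they were Vps29 (0.29), Snx17 (0.24), Snx30 (0.22, between 0.02 and 0.41 on leaving out 1 array), Snx14 (-0.33) and Snx25 (-0.29). The Snx17 value turned negative with the mean of its probes. None of these was called.

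Genes that work with these families were examined as a fixed list. Its 64 genes covered ESCRT partners, the WASH complex and recycling factors, endosomal Rab proteins, phosphoinositide kinases and phosphatases, and retromer cargo. Of its 49 tested genes, 0 were called higher and 1 lower in Snx5-/- lungs over both states, beside the 2.41% of all genes, with a median of -0.02. Ehd4, an EH-domain ATPase of endosomal recycling, read 13.41 and 13.26 in Snx5-/- air lungs, against 13.67 and 13.97 in Snx5+/+ air lungs, and 13.01 and 13.04 in Snx5-/- non-air lungs, against 13.61 and 13.67 in Snx5+/+ non-air lungs. The 4 Snx5-/- arrays lay below the 4 Snx5+/+ arrays, by -0.55 (SE 0.08, adjusted p = 0.00368, limma), and the call held on leaving out each array in turn. In non-air lungs it was called as well (-0.62, SE 0.12, adjusted p = 0.0465, limma) but the call was lost on leaving out any array other than Snx5+/+ non-air replicate 1 (adjusted p from 0.0503 to 0.398, limma) and under several other settings. Between genotypes in non-air lungs, 0.639% of all genes were called. Ehd4 stands 4 protein-coding genes from Vps39 on chromosome 2. Whether sequence linked to the trapped allele had a part in its difference was not tested. In the comparisons of air with non-air lungs, 0 of the 49 genes were called, against 1.27% of all genes averaged over genotypes. The share was 0.701% in Snx5-/- lungs and 0.796% in Snx5+/+ lungs.

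Markers of several cell types moved with genotype or air in the same libraries. Over 9 measured type I cell markers, the summed linear intensity was 132131 to 136867 in Snx5-/- air lungs, against 158555 to 160436 in Snx5+/+ air lungs, and 135031 to 136089 in Snx5-/- non-air lungs, against 155414 to 173284 in Snx5+/+ non-air lungs. Of the 7 tested, 3 were called lower over both states (Aqp5, Pdpn and Ager), and Hopx and Rtkn2 were detected on no array. The 10 neutrophil markers summed to 23731 to 27887 in Snx5-/- air lungs, against 15352 to 16240 in Snx5+/+ air lungs, and to 14756 to 15053 in Snx5-/- non-air lungs, against 7457 to 10814 in Snx5+/+ non-air lungs. Of 7 tested, 4 were called higher in Snx5-/- lungs and 6 higher in air lungs, while Mmp8, Elane and Mpo were detected on no array. The 10 type II cell markers had 0 called between genotypes, as did the 7 of ciliated cells and the 6 of macrophages, while 2 of 8 tested endothelial markers (Eng and Car4) and 1 of 5 of secretory cells (Hp) were called lower. Called higher in Snx5-/- lungs were 1 of 5 smooth muscle markers (Actg2) and 1 of 4 liver markers (Ahsg), and 1 of 4 erythroid markers was higher and 2 were lower. In air lungs, 2 of 6 macrophage markers (C1qb and C1qc) and Actg2 were called higher and 1 of 4 erythroid markers lower, with 0 called in the other lists besides neutrophils averaged over genotypes. By genotype, Actg2 (0.80), C1qc (0.70) and Hbb-y (-0.77) were called with air in Snx5-/- lungs and not in Snx5+/+ lungs. The Snx5-/- air arrays are those with low Xist, and the part of sex was not tested. Over all genes, 2.41% were called between genotypes and 1.27% between air and non-air lungs. Within states, 3 of 4 liver markers (Ahsg, Fga and Apoa1) and Scgb3a1 of secretory cells were called higher in Snx5-/- than in Snx5+/+ non-air lungs. Fga and Apoa1 were called lower in air than in non-air Snx5-/- lungs, and the interaction was called for the 3 liver markers. Apoa1 was detected on no array, so its calls rest on signal at background. Ahsg and Fga were above background in the Snx5-/- non-air group alone. The part of these shifts in the values of Vps39, Snx16 and the other members was not tested.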

How the data were processed

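Per the labels and methods, RNA of whole lungs was amplified, hybridized to Illumina BeadChips and scanned on a BeadStation. The log2 intensities deposited by the authors, quantile normalized according to the methods, are the values analysed. The authors also deposited non-normalized intensities on a linear scale. Detection p-values were deposited beside them. The number of per-sample columns not used is 0.

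With R 4.3.3 and limma 3.58.1, linear models with moderated variances were fitted to 8 arrays with a mean for each of 4 groups and no block, so every contrast shares 1 estimate of spread. The methods' cutoffs were kept, a log2 intensity of 8 and a log2 fold change that equals 1.28-fold, and p-values were adjusted over all probes tested. Intervals are at 95%. A fold given as at least is an estimate with undetected signal set to the lowest detected one, and not a confidence limit. The methods call the 2 replicates of each genotype biological and do not say so for each air state. Where arrays of a group share an origin, p-values measure technical spread only. The members, role lists, partner list and marker lists were chosen with earlier results of these data known. Named are members called in any comparison, the retromer genes, members on chromosome 2, the 5 largest differences per direction between genotypes averaged over both states and 3 per direction in each other comparison, and called genes of the partner list. Fits were tested on simulated data. Deviations of same-numbered replicates from their group means had correlations from -0.227 to 0.278 between groups, positive for some pairs of groups and negative for others. The numbers were therefore not used to pair arrays in the main fit. Whether arrays of different groups share a batch cannot be told from these correlations. Alternatives were the intensity table under its own labels, neqc with an offset of 16, median scaling, other filters, the mean of a gene's probes, a replicate block, no fold cutoff, only the arrays compared, an intensity trend, the methods' t-test and leaving out each array. The t-test was run without the permutation null and the median ratio test that the methods combine with it.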

Additional observations from a re-analysis of the deposited data

How the results depend on the processing

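The count of 0 members called between genotypes averaged over both states, in non-air lungs and for the interaction kept its value under every alternative run. With the mean of probes, Vps39 (0.33, adjusted p = 0.0159, limma) and Snx16 (0.29, adjusted p = 0.0491, limma) passed the p threshold over both states and missed only the fold cutoff. In air lungs it became 1 with the mean of a gene's probes (Vps39, 0.41). The 1 member lower in air lungs became 0 with the methods' t-test and ranged from 0 to 1 on leaving out arrays. By genotype, the mean of probes gave 1 in Snx5-/- lungs (Vps39, -0.49) and 1 in Snx5+/+ lungs (Vps39, -0.64), where leaving out arrays gave 0 to 2 (Vps39, and Snx18 without non-air replicate 1). A crossed replicate block, added after seeing the data, gave 1 there. The replicate block itself changed no count of members, but Ehd4 in non-air lungs then missed the call (adjusted p = 0.0688, limma), as it did with the intensity table's labels (0.0607), median scaling (0.0621), only the arrays compared (0.0769) and neqc (0.158). The methods' t-test with Benjamini-Hochberg adjustment called neither Vps39 probe nor Ehd4 in any comparison where limma did. It is not the authors' full procedure, which was not run.
The intensity table under its own labels turned these signs. In the averaged air comparison it gave Snx17 -0.23, Snx22 -0.20, Snx8 -0.14, Vps39 0.49 and 0.62 (second probe), Snx14 0.26 and Snx21 0.20. In Snx5-/- lungs it gave Snx22 -0.31, Snx4 -0.23, Vps35 -0.22, Vps39 0.51, Snx12 0.22 and Snx24 0.22, and in Snx5+/+ lungs Vps29 -0.29, Snx17 -0.24, Snx30 -0.20, Vps39 0.47 and 0.79 (second probe), Snx14 0.33 and Snx25 0.29. The interaction became Vps35 -0.36, Snx25 -0.34, Snx4 -0.31, Vps29 0.35, Vps45 0.33 and Snx30 0.27. Between genotypes it gave Snx12 -0.013 in non-air lungs, Snx6 -0.036 and Vps45 0.12 in air lungs, and Snx1 -0.0067 over both states. Snx1 was also turned by neqc (-0.0082) and median scaling (-0.036), Vps18 by median scaling (-0.026), Vps26a by the mean of probes (0.024), and Snx17 in Snx5+/+ lungs by the mean of probes (-0.066). With neqc, Vps39 differed by 0.50 between genotypes over both states and by 0.53 in air and 0.47 in non-air lungs, and by -0.92 between air and non-air lungs (-0.89 in Snx5-/- and -0.96 in Snx5+/+ lungs). Its second probe then gave 0.85 over both states and 1.33 in air lungs between genotypes, and -1.24 averaged and -1.71 in Snx5+/+ lungs between air and non-air. These exceed the deposited-table values by over 1.5 times, with the same signs and calls. On leaving out arrays the averaged genotype difference ranged from -0.067 to 0.071 for Snx1, -0.11 to 0.050 for Snx32, -0.028 to 0.12 for Vps35, -0.030 to 0.070 for Vps18, -0.027 to 0.12 for Vps16, -0.11 to 0.032 for Vps26a and -0.056 to 0.21 for Vps26b. Over all alternatives, values of single genes kept sign and side of the threshold in 1049 instances, turned sign in 51, lost a call in 34 and gained one in 4. The members' median stayed within the spread between arrays (SD 0.025) in 48 instances and moved beyond it in 12. Fitting only the arrays compared is the same fit for the averaged comparisons and the interaction, which use all arrays. Apart from the exchange of labels, the cause of these changes was not tested. The number of arrays limits precision, and probes not above background, such as those of Snx5 and Vps39, give only bounds.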
